A study of Drosophila melanogaster with 19 samples.

Results

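FK506-bp1 and FK506-bp2 are Drosophila genes of the FK506-binding proteins (FKBPs), listed today in RefSeq as Fkbp39 and Fkbp12. Both were taken by their symbol in the table, and they are 2 of 15021 genes and 4 of 37161 transcripts there. The pair was selected on the deposited FPKM of the E2F2 RNAi library, in which FK506-bp2 was low, and on the place of FK506-bp2 beside mip40, a gene targeted in the same study. The E2F2 values of both genes are therefore described below without a test. RNA was measured in S2R+ cells, a line with features of blood cells, after 4 days of treatment with double-stranded RNA (dsRNA) at 25 °C. The cells received dsRNA against mip40, mip120, mip130 (2 libraries each) or E2F2 (1 library), and control cells received dsRNA against GFP (2 libraries), which has no target in these cells. The targeted genes encode subunits of dREAM, a complex on chromatin that joins E2F2 and a retinoblastoma-type protein to Myb and the mip proteins. All cells thus received dsRNA, and per the labels' protocols they had been passaged equally often. Whether replicates are separate cultures is not stated.

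FKBPs are prolyl isomerases, enzymes that speed the turning of the peptide bond before proline. FKBP12 is a small cytosolic protein and the receptor of the drugs FK506 and rapamycin. Bound to FK506 it inhibits the phosphatase calcineurin, and bound to rapamycin it inhibits the kinase TOR. In mammals, without drug, it also binds calcium release channels and type I receptors of the TGF-beta family. FKBP39 is a nuclear protein that joins an FKBP domain to a nucleoplasmin-like domain. In Drosophila it has been described as an inhibitor of autophagy and as a partner of Chd64 at hormone response elements.

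Values are deposited FPKM, a measure of abundance per transcript length and per mapped fragment that keeps no read counts, so depth is unknown. The sum of all FPKM lay between 618451 and 774009 in the 9 libraries and was highest in the E2F2 RNAi library. FK506-bp1 and FK506-bp2 both passed the filter on low values, at least 1 FPKM in at least 2 libraries, as did 7835 genes in all. Replicates of a group had a Pearson r of 0.967 to 0.985 over 7835 genes, and genes are not independent points. The blood cell genes srp, crq and Pvr lay between 62.1 and 190 FPKM in every library. Of the other blood cell markers, Pxn ranged from 9.58 to 42.5 FPKM, Cg25C from 9.84 to 21.7 FPKM and vkg from 4.74 to 11.0 FPKM, and Hml stayed at or below 0.443 FPKM. The neuronal gene elav lay between 23.4 and 40.6 FPKM. Targeted transcripts were lower than in GFP cells in their own groups, to unequal degrees. mip40 was 3.96% of the GFP mean in mip40 RNAi and mip120 was 59.6% in mip120 RNAi. mip130 was 16.4% in mip130 RNAi and E2f2 was 9.45% in the E2F2 RNAi library. In the E2F2 RNAi library mip120 was also 75.7% and mip130 67.0% of the GFP mean, each below both GFP libraries, while mip40 was 120%.

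FK506-bp2 was an abundant transcript, and lowest in the E2F2 RNAi library. It had 888 and 819 FPKM in mip40 RNAi, 653 and 619 FPKM in mip120 RNAi, 812 and 904 FPKM in mip130 RNAi, and 163 FPKM in the E2F2 RNAi library, against 781 and 755 FPKM in GFP cells. The E2F2 RNAi library thus lay below every other library. In bulk RNA, fewer cells of a type and less RNA per cell cannot be told apart. A single transcript on arm 2R, on the forward strand with its start at 15177607, carried the whole value of the gene in each library, so no shift between isoforms enters it. Positions are those of the table, and the sources used here do not name its genome build.

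**Figure D1:**
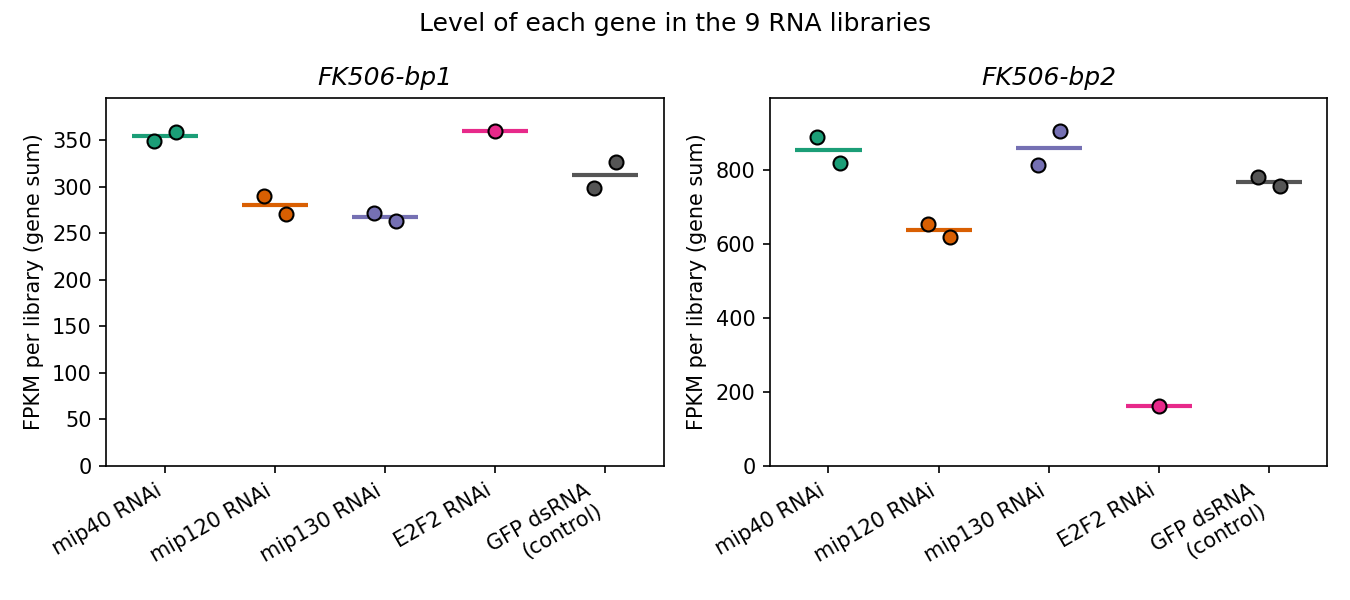
Gene level of FK506-bp1 (left) and FK506-bp2 (right) in FPKM on linear axes from 0, by group along the horizontal axis. Points are single libraries and bars are group means, and the E2F2 RNAi library at 163 FPKM stands alone in the panel of FK506-bp2.

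In the E2F2 RNAi library FK506-bp2 stood at 21.2% of the GFP mean, a difference of -2.23 on the log2(FPKM + 1) scale. It was 46th from the lowest difference among 7835 genes tested, which had a median difference of 0.08. Among those 46 genes FK506-bp2 had the highest level in GFP cells, 768 ± 18.2 FPKM (SD, n = 2), and the next highest had 168 FPKM. Among the 186 tested genes with a GFP level within 2-fold of its own, its difference was the lowest, with the next lowest at -0.72 and a median of 0.16. These ranks describe 1 library without a replicate, and the gene was chosen for this drop. With either GFP library left out, the difference lay between -2.26 and -2.21. With median-ratio scaling it was -2.32 and with quantile normalization -2.43.

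In the 3 mip groups FK506-bp2 moved by small amounts. It fell in mip120 RNAi, to 636 ± 24.6 FPKM, against 768 ± 18.2 FPKM in GFP cells (SD, n = 2 each). The log2 change was -0.27 ± 0.08 (SE), with a limma adjusted p = 0.043, and both mip120 libraries were below both GFP libraries. The change in mip40 RNAi, at 853 ± 48.9 FPKM, was 0.15 with a 95% interval of -0.05 to 0.35 (limma adjusted p = 0.31). That in mip130 RNAi, at 858 ± 65.0 FPKM, was 0.16 with an interval of -0.04 to 0.36 (limma adjusted p = 0.18). In both groups the 2 libraries lay above the GFP libraries, without passing the test, and with quantile normalization the value was -0.022 in mip40 RNAi and 0.012 in mip130 RNAi. The 3 comparisons share the same 2 GFP libraries.

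The call in mip120 RNAi lay close to the threshold. It was lost when GFP replicate 1 (limma adjusted p = 0.14), GFP replicate 2 (0.10), mip120 replicate 1 (0.091), mip120 replicate 2 (0.19), mip130 replicate 1 (0.053) or mip130 replicate 2 (0.053) was left out. It was also lost without a filter on low values (0.086) and when only the GFP and mip120 libraries were fitted (0.059), while the change stayed between -0.31 and -0.23.

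The mip groups also differed from each other in FK506-bp2, with mip120 RNAi below the other two. It was lower in mip120 RNAi than in mip40 RNAi, by a log2 difference of -0.42 ± 0.08 (limma adjusted p = 0.015). It was also lower in mip120 RNAi than in mip130 RNAi, by -0.43 ± 0.08 (limma adjusted p = 0.030). Between mip130 RNAi and mip40 RNAi the difference was 0.01, with a 95% interval of -0.19 to 0.21 (limma adjusted p = 0.96). In order of level, mip130 RNAi and mip40 RNAi overlapped, GFP cells came next, mip120 RNAi lay below them, and the E2F2 RNAi library was last. The first difference missed the threshold without mip40 replicate 1 (0.069) or mip120 replicate 2 (0.092). The second missed it without mip120 replicate 1 (0.13), mip120 replicate 2 (0.14), mip130 replicate 1 (0.065) or mip130 replicate 2 (0.19), without the filter on low values (0.075) and when only these 2 groups were fitted (0.072).

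On the side of higher coordinates the gene next to FK506-bp2 is mip40. It starts at 15179708 on the reverse strand, 2101 bp from the start of FK506-bp2, so that the genes are transcribed towards each other. mip40 had 1.45 and 1.12 FPKM in mip40 RNAi, against 34.0 and 31.1 FPKM in GFP cells (log2 change -3.88 ± 0.10, limma adjusted p = 6.4e-06). FK506-bp2 in those mip40 RNAi libraries, at 888 and 819 FPKM, was above both GFP libraries and did not pass the test. In the E2F2 RNAi library, where FK506-bp2 was low, mip40 had 39.1 FPKM, above both GFP libraries. mip40 rose in mip120 RNAi (log2 change 0.59 ± 0.10, limma adjusted p = 0.0056), where FK506-bp2 fell. In mip130 RNAi both genes lay above both GFP libraries, mip40 at 51.3 and 55.1 FPKM and FK506-bp2 at 812 and 904 FPKM. The 2 genes thus lay on opposite sides of the GFP libraries in mip40, mip120 and E2F2 RNAi, and on the same side in mip130 RNAi. The higher values of FK506-bp2 in mip40 and mip130 RNAi did not pass the test. Whether the levels of the 2 genes are linked was not tested.

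Further genes around FK506-bp2 were not low in the E2F2 RNAi library, or were listed at 0 throughout. Tab2, an adaptor of the Imd immune pathway that starts 2427 bp away, had 52.9 FPKM in the E2F2 RNAi library, against 50.1 and 42.6 FPKM in GFP cells. CG7461, which starts 15061 bp away, had 56.6 FPKM there, against 45.8 and 47.7 FPKM in GFP cells. On the other side CG18607, CG18606 and CG10474, which start 993, 2119 and 3372 bp away, were listed at 0 in all 9 libraries. Neither Tab2 nor CG7461 was called in any of the 3 mip groups, where Tab2 had log2 changes between -0.07 and 0.04. A Tab2 transcript marked as other overlap, with a first exon from 15179505 to 15179506, starts inside the mip40 exon (15178610 to 15179708) on the opposite strand. It had 20.2 and 21.3 FPKM in mip40 RNAi, against 27.2 and 19.5 FPKM in GFP cells, which overlap. In the E2F2 RNAi library it held 30.6 FPKM of the Tab2 sum. The most abundant known Tab2 transcript had 21.1 FPKM in the E2F2 RNAi library, against 20.5 and 21.6 FPKM in GFP cells. The sources used here do not say whether strand was kept, so reads of the overlapping Tab2 transcript and mip40 cannot be told apart with certainty.

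**Figure D2:**
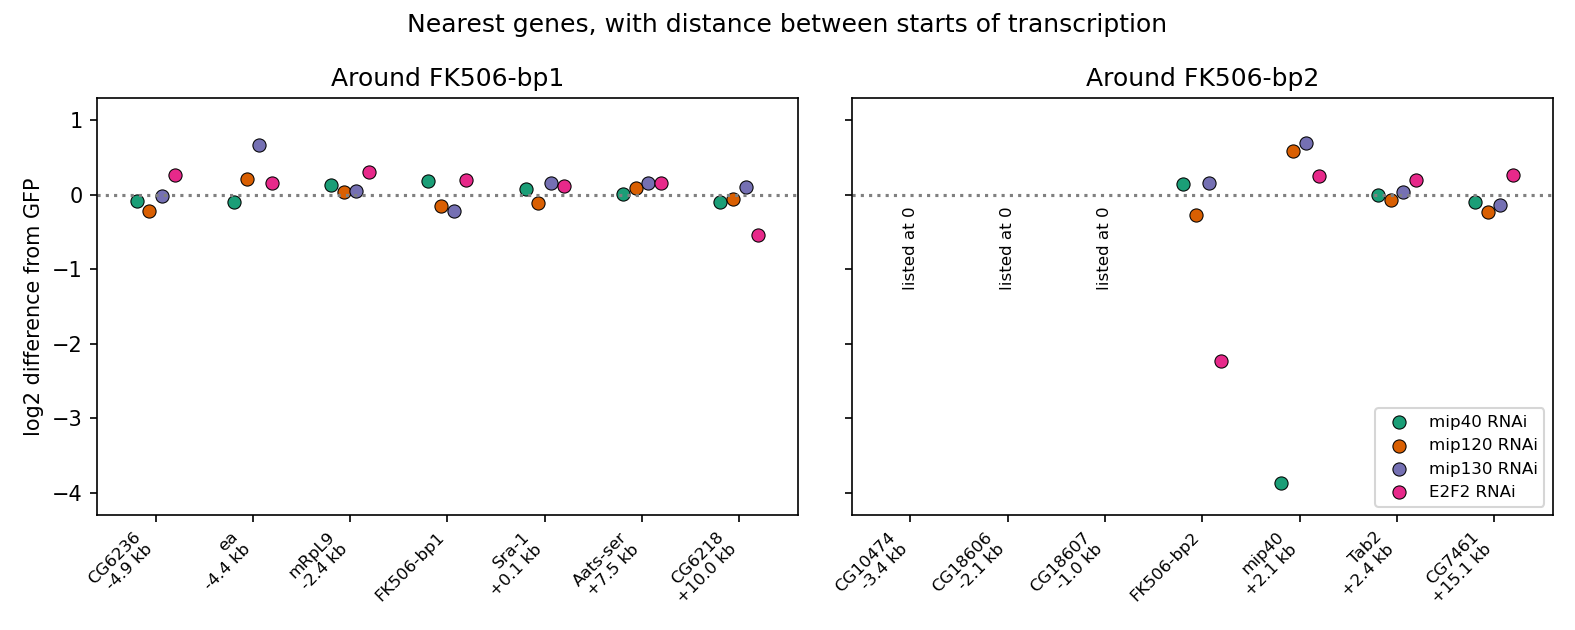
Log2 difference from GFP of the 3 nearest genes on each side of FK506-bp1 (left) and FK506-bp2 (right), ordered along the chromosome, with the distance between starts of transcription in kb. Points are the 4 RNAi groups. FK506-bp2 at -2.23 in the E2F2 RNAi library and mip40 at -3.88 in mip40 RNAi are the only points below -1, and 3 genes listed at 0 have no points.

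FK506-bp1 varied less. Summed over its transcripts it had 349 and 358 FPKM in mip40 RNAi, 289.8 and 270.3 FPKM in mip120 RNAi, 271 and 263 FPKM in mip130 RNAi, and 359 FPKM in the E2F2 RNAi library, against 299 and 326 FPKM in GFP cells. The mip40 and E2F2 RNAi libraries were the highest 3 and the mip130 and mip120 RNAi libraries the lowest 4. In the E2F2 RNAi library, where FK506-bp2 was low, the log2 difference of FK506-bp1 was 0.20, beside a median of 0.12 over 506 tested genes with a level within 2-fold of its own. It depended on the processing, at 0.40 with known transcripts alone, 0.11 with median-ratio scaling and 0.068 with quantile normalization. The median over all tested genes also moved, from 0.08 as deposited to -0.0047 with median-ratio scaling and -0.0094 with quantile normalization. FK506-bp1 lies on 3R, on the reverse strand, with the start of its known transcript at 11158855.

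The level of FK506-bp1 is spread over 3 transcripts, and the minor ones were erratic. The known isoform had 349 and 297 FPKM in mip40 RNAi, 243 and 234 FPKM in mip120 RNAi, 271 and 263 FPKM in mip130 RNAi, and 359 FPKM in the E2F2 RNAi library, against 296 and 248 FPKM in GFP cells. The other 2, which the authors' table marks as new isoforms, begin 7923 and 11279 bp upstream with a first exon of 8 bp each. The nearer one, with its exon at 11166771 to 11166778, lies inside the first exon of the seryl-tRNA synthetase gene Aats-ser (11166389 to 11168940), on the opposite strand. The values of the 2 new isoforms were identical as deposited in 7 of 9 libraries, and in 3 of those both were at 0. In GFP replicate 2 they differed, with 77.0 FPKM for the nearer and 1.14 FPKM for the farther one.

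Together the new isoforms had 0 and 61.6 FPKM in mip40 RNAi, 46.3 and 36.1 FPKM in mip120 RNAi, 0 in both mip130 RNAi libraries and 0.731 FPKM in the E2F2 RNAi library, against 2.56 and 78.1 FPKM in GFP cells. They thus made up 24.0% of the gene in GFP replicate 2 and 0.858% in GFP replicate 1, and 17.2% in mip40 replicate 2 and none in mip40 replicate 1. The split thus differed widely between replicates of these 2 groups. In mip40 RNAi and in GFP cells the known isoform was lower in the replicate with more of the new ones, and the sums of the replicates were closer than their known values. In mip40 RNAi the sum was 354 ± 6.52 FPKM and the known isoform 323 ± 37.0 FPKM (SD, n = 2). In GFP cells the sum was 312 ± 19.3 FPKM and the known isoform 272 ± 34.1 FPKM. The mip120 RNAi group went the other way, with more of both in replicate 1. There the sum, at 280 ± 13.8 FPKM, varied more than the known isoform, at 239 ± 6.54 FPKM.

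**Figure D3:**
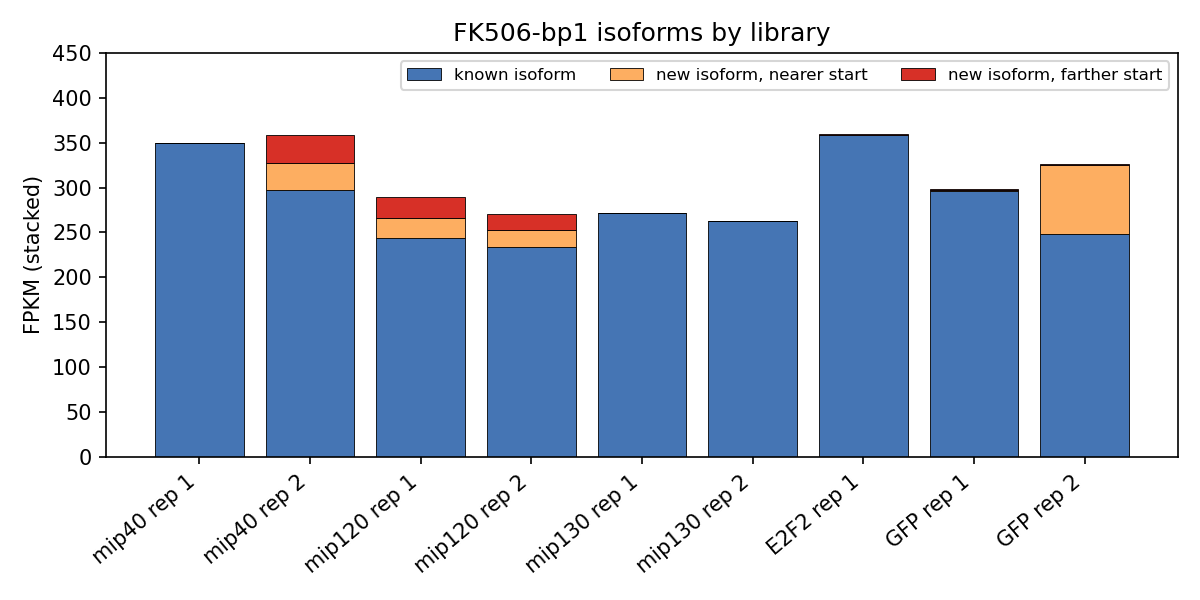
FPKM of the known and the new isoforms of FK506-bp1, stacked, in each library, on a linear axis from 0. The new isoforms reach 78.1 FPKM in GFP replicate 2 and 61.6 FPKM in mip40 replicate 2 and are at 0 in 3 libraries.

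By its sum, FK506-bp1 fell in mip130 RNAi, to 267 ± 5.66 FPKM, against 312 ± 19.3 FPKM in GFP cells (log2 change -0.22 ± 0.07, limma adjusted p = 0.049). This call was not kept without the new isoforms, and the reason was not tested. With known transcripts alone the group had 267 ± 5.66 FPKM, against 272 ± 34.1 FPKM in GFP cells, a log2 change of -0.02 (limma adjusted p = 0.91). It was also lost when any library other than GFP replicate 1 or the E2F2 RNAi library was left out, with adjusted p between 0.060 and 0.22, and without GFP replicate 2, which held most of the new isoforms, the change was -0.16. In mip40 RNAi the change was 0.18 with a 95% interval of 0.01 to 0.35 (limma adjusted p = 0.18), and in mip120 RNAi -0.16 with an interval of -0.33 to 0.01 (limma adjusted p = 0.13). In both, the libraries did not overlap with the GFP libraries, and the comparison did not pass after adjustment.

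FK506-bp1 was lower in mip120 RNAi than in mip40 RNAi, by a log2 difference of -0.34 ± 0.07 (limma adjusted p = 0.018). With known transcripts alone this was -0.43 (limma adjusted p = 0.040). It was likewise lower in mip130 RNAi than in mip40 RNAi, by -0.40 ± 0.07 (limma adjusted p = 0.013), but with known transcripts alone by -0.27, which missed the threshold (limma adjusted p = 0.13). Between mip120 RNAi and mip130 RNAi the difference was 0.07 with an interval of -0.10 to 0.24 (limma adjusted p = 0.58), and with known transcripts alone it was -0.16. The first was lost without mip40 replicate 1 (0.060), mip40 replicate 2 (0.060) or mip120 replicate 2 (0.11), and with quantile normalization (0.075). The second was lost without mip40 replicate 1 (0.057), mip130 replicate 1 (0.055) or mip130 replicate 2 (0.085).

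These calls stand among many. Of the 2 genes, neither was called in mip40 RNAi, where 9.20% of 7835 tested genes were called, 5.69% higher and 3.51% lower. In mip120 RNAi 1 of 2, FK506-bp2, was called lower, where 36.5% of tested genes were called, 17.6% higher and 18.9% lower. In mip130 RNAi 1 of 2, FK506-bp1, was called lower, where 36.2% were called, 19.3% higher and 16.9% lower. Both were called lower in mip120 than in mip40 RNAi, where 25.5% of tested genes were called, 11.2% higher and 14.3% lower. FK506-bp1 alone was called lower in mip130 than in mip40 RNAi, where 25.0% were called, 12.3% higher and 12.7% lower. FK506-bp2 alone was called lower in mip120 than in mip130 RNAi, where 8.32% were called, 3.38% higher and 4.94% lower. Counts out of 2 genes are too few to be set apart from these shares.

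**Figure D4:**
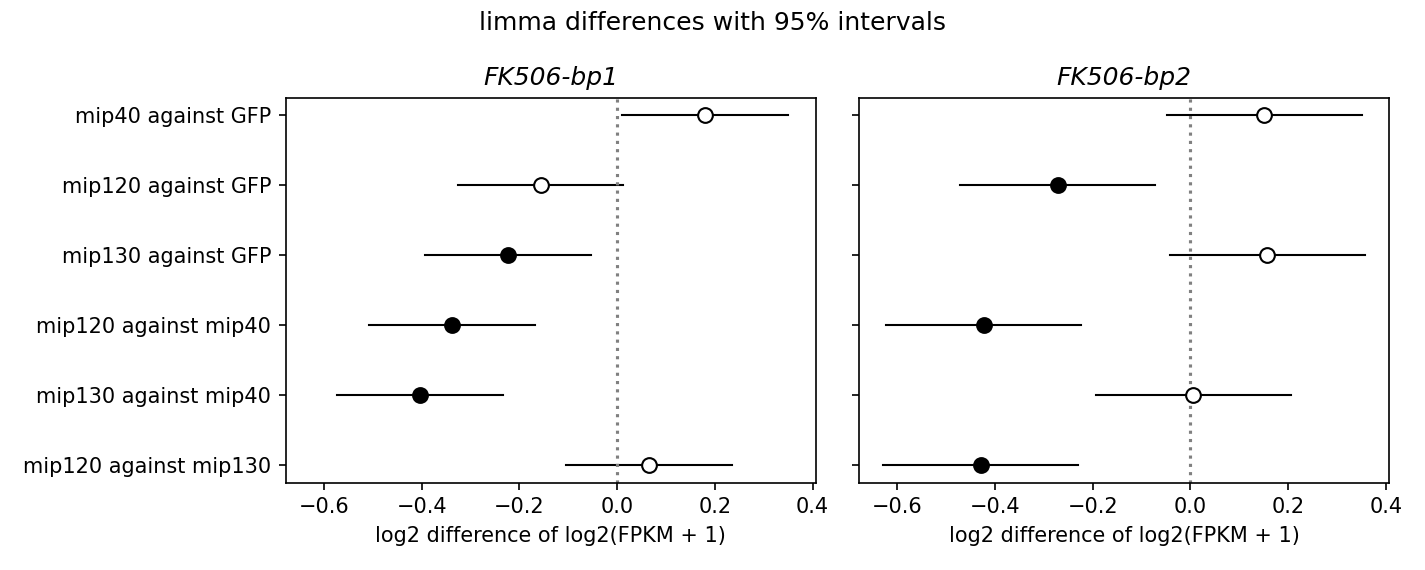
Log2 differences of FK506-bp1 (left) and FK506-bp2 (right) with 95% intervals from limma, for 3 mip groups against GFP and 3 pairs of mip groups. Filled points passed an adjusted p of 0.05. For both genes the 2 lowest points compare mip groups with each other, down to -0.40 for FK506-bp1 and -0.43 for FK506-bp2.

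The gene with its start nearest to that of FK506-bp1 is Sra-1. Sra-1, which encodes a subunit of the actin-regulating WAVE complex, starts 133 bp away on the opposite strand, head to head with FK506-bp1. It had 35.1 FPKM in each library of mip40 RNAi, 30.5 and 31.1 FPKM in mip120 RNAi, 36.6 and 37.5 FPKM in mip130 RNAi and 36.0 FPKM in the E2F2 RNAi library, against 33.9 and 32.7 FPKM in GFP cells. It was called in none of the 3 mip groups, with a limma adjusted p = 0.42 in mip40, 0.16 in mip120 and 0.065 in mip130 RNAi. Of the other 5 neighbours, ea, a protease of dorsoventral patterning, was called, in mip130 RNAi alone, with 7.13 and 6.51 FPKM in mip130 RNAi, against 3.47 and 4.46 FPKM in GFP cells (log2 change 0.66 ± 0.16, limma adjusted p = 0.021).

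The other 6 FKBP genes all passed the filter on low values. One of them, shu (shutdown), an FKBP co-chaperone of the germline piRNA pathway, rose in all 3 mip groups and was also high in the E2F2 RNAi library. It had 64.3 and 63.8 FPKM in mip40 RNAi, 76.1 and 77.6 FPKM in mip120 RNAi, 65.3 and 65.4 FPKM in mip130 RNAi and 66.2 FPKM in the E2F2 RNAi library, against 27.4 and 27.0 FPKM in GFP cells. Its log2 changes were 1.21 ± 0.05, 1.47 ± 0.05 and 1.24 ± 0.05 in the 3 mip groups (limma adjusted p = 3.6e-05, 8.2e-06 and 1.8e-05) and 1.25 in the E2F2 RNAi library.

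CG1847, related to the aryl hydrocarbon receptor-interacting protein of mammals, rose in mip120 RNAi (log2 change 0.61 ± 0.14, limma adjusted p = 0.017) and in mip130 RNAi (0.72 ± 0.14, limma adjusted p = 0.010). It had 12.3 and 12.2 FPKM in mip40 RNAi, 12.5 and 12.9 FPKM in mip120 RNAi, 13.6 and 14.1 FPKM in mip130 RNAi and 8.47 FPKM in the E2F2 RNAi library, against 9.65 and 6.63 FPKM in GFP cells. Fkbp13, today Fkbp14, an FKBP of the endoplasmic reticulum, rose in mip120 RNAi to 517 ± 28.5 FPKM, against 383 ± 6.31 FPKM in GFP cells. CG5482, today zda, fell there to 137 ± 0.979 FPKM, against 167 ± 11.0 FPKM in GFP cells. FKBP59, a co-chaperone with tetratricopeptide repeats, and CG14715 were called in none of the 3 mip groups, with log2 changes between -0.21 and 0.29. The highest of these, for CG14715 in mip130 RNAi, lay at the threshold (limma adjusted p = 0.0502).

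Without FK506-bp1 and FK506-bp2 the family had 1 member higher and none lower in mip40 RNAi, 3 higher and 1 lower in mip120 RNAi, and 2 higher and none lower in mip130 RNAi, of 6. The shares of all tested genes called were 9.20%, 36.5% and 36.2%, and these member counts were the same with median-ratio scaling and with quantile normalization. The medians of the 6 were 0.11, 0.12 and 0.22 in mip40, mip120 and mip130 RNAi, beside 0.01, -0.04 and 0.01 over all tested genes. With quantile normalization the first was 0.040, beside -0.016 over all tested genes. In the E2F2 RNAi library the median was 0.17, beside 0.08 over all tested genes. With median-ratio scaling it was 0.073, beside -0.0047 over all tested genes. With quantile normalization it was 0.032, beside -0.0094 over all tested genes. The model called 12.0% of tested genes in that library, 9.28% higher and 2.72% lower, by lending it the spread of the other groups. As it has no replicate, values in it are given here without a call.

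**Figure D5:**
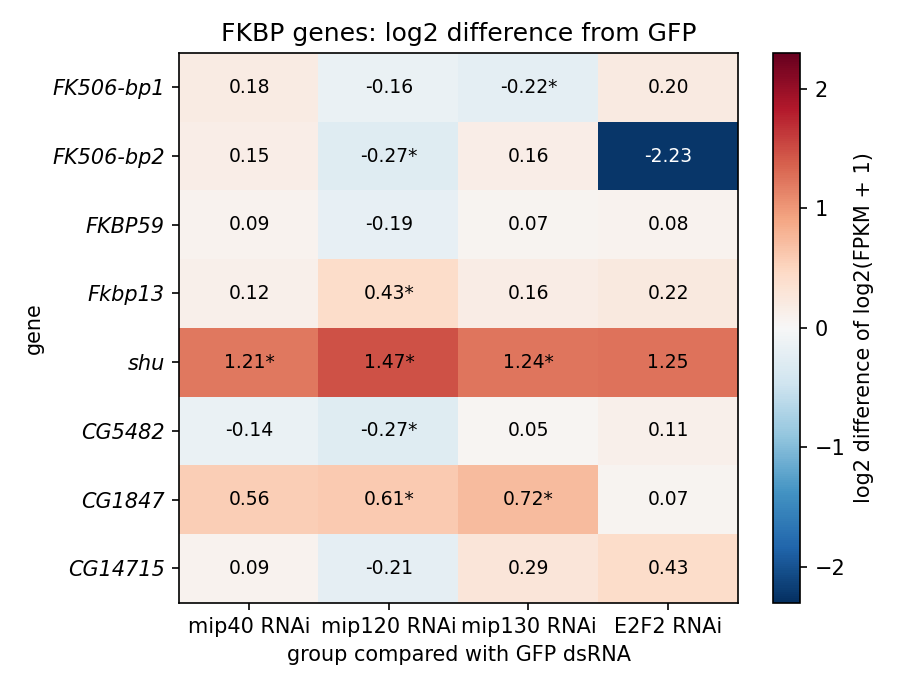
Log2 difference from GFP for the 8 FKBP genes (rows) in the 4 RNAi groups (columns), with colour and number giving the difference of log2(FPKM + 1). Stars mark limma adjusted p under 0.05 in the mip groups, and the E2F2 column carries none because the drop of FK506-bp2 there, at -2.23, was used to choose it. shu is between 1.21 and 1.47 in all 4 columns.

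Of 15 cyclophilins, prolyl isomerases that include the receptors of cyclosporin, 13 were tested. In mip40 RNAi Moca-cyp rose alone, 1 of 13, beside 9.20% of all tested genes called. In mip120 RNAi none rose and 3 fell, CG7747 to 9.85 ± 0.170 FPKM, against 14.9 ± 0.155 FPKM in GFP cells, CG5808 and Cypl. In mip130 RNAi 3 rose, CG2852, CG10907 and CG11777, and 3 fell, CG7747, CG5808 and CG8336. CG5808 had 34.1 ± 0.601 FPKM in mip130 RNAi, against 48.4 ± 2.46 FPKM in GFP cells. The 3 of 13 in mip120 RNAi and 6 of 13 in mip130 RNAi stand beside 36.5% and 36.2% of all tested genes. The medians were -0.02, -0.08 and 0.19. With median-ratio scaling CG10907 also rose in mip120 RNAi, and with quantile normalization CG7768 also fell in mip130 RNAi. Of the 2 parvulins, dod rose in mip130 RNAi, where 36.2% of all tested genes were called, and CG11858 was called in no mip group.

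Further lists hold genes of proteins that FKBP12 is known to bind, alone or with its drugs, and genes that act with those proteins. Of 6 calcineurin genes 4 were tested, and sra, which encodes a calcineurin regulator, rose in mip120 RNAi to 38.2 ± 0.992 FPKM and in mip130 RNAi to 41.1 ± 0.391 FPKM, against 31.9 ± 1.20 FPKM in GFP cells. This is 1 of 4 in each of these groups, where 36.5% and 36.2% of all tested genes were called. With either other scaling CanA-14F also fell in mip130 RNAi. Of 5 genes of calcium release channels and type I TGF-beta receptors 4 were tested. Among them sax alone rose, in mip130 RNAi, to 56.9 ± 2.63 FPKM, against 45.4 ± 3.53 FPKM in GFP cells. This is 1 of 4 in mip130 RNAi, beside 36.2% of all tested genes called there.

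All 10 TOR pathway genes were tested. Thor, the translation repressor that TOR phosphorylates, rose in all 3 mip groups, with 66.0 ± 9.06 FPKM in mip40 RNAi, 124 ± 4.35 FPKM in mip120 RNAi and 80.0 ± 2.91 FPKM in mip130 RNAi, against 35.2 ± 4.30 FPKM in GFP cells. Its log2 changes of 0.89, 1.79 and 1.17 each had an SE of 0.11 (limma adjusted p = 0.0058, 0.00010 and 0.00073). It was the only one of the 10 called in mip40 RNAi, beside 9.20% of all tested genes. In mip120 RNAi Lst8 also rose, while Tor, gig and Akt1 fell, and in mip130 RNAi Lst8 also rose while Rheb fell. These are 5 of 10 and 3 of 10 genes, beside 36.5% and 36.2% of all tested genes. With median-ratio scaling S6k also fell in mip130 RNAi. In the E2F2 RNAi library raptor, which encodes the TOR partner that recruits substrates, had 5.05 FPKM, against 9.86 and 13.7 FPKM in GFP cells, a log2 difference of -1.06 from their mean in 1 library.

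Among genes linked to FKBP39, 6 of 7 nucleoplasmin and hormone response genes were tested and EcR, the ecdysone receptor, fell in 2 groups, to 55.8 ± 3.90 FPKM in mip120 RNAi and to 49.2 ± 2.02 FPKM in mip130 RNAi, against 79.3 ± 11.2 FPKM in GFP cells. EcR was 1 of 6 called in each of these groups, beside 36.5% and 36.2% of all tested genes. Chd64 was called in no mip group, with log2 changes between -0.11 and 0.25. The nucleoplasmin-like gene Nlp had 1311 FPKM in the E2F2 RNAi library, against 755 and 849 FPKM in GFP cells, a log2 difference of 0.71 in 1 library. With median-ratio scaling this difference was 0.62 and with quantile normalization 0.51. Replicates of Nlp in mip40 RNAi also differed, at 1131 and 841 FPKM.

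Of 21 autophagy genes 19 were tested. In mip40 RNAi Atg6 fell alone, 1 of 19, beside 9.20% of all tested genes called. In mip120 RNAi 4 rose and 2 fell, and in mip130 RNAi 3 rose and 2 fell, so that 6 and 5 of 19 were called, beside 36.5% and 36.2% of all tested genes. Atg1, the kinase that starts autophagy, rose in mip120 RNAi to 19.7 ± 0.642 FPKM and in mip130 RNAi to 13.9 ± 0.142 FPKM, against 10.8 ± 0.0735 FPKM in GFP cells. Atg8a, the protein that is joined to the autophagosome membrane, rose to 429 ± 13.4 FPKM in mip120 RNAi and to 391 ± 9.44 FPKM in mip130 RNAi, against 329.6 ± 12.2 FPKM in GFP cells. Atg5 fell in both. With quantile normalization the counts were 4 and 3 in mip120 RNAi and 2 and 2 in mip130 RNAi. The list medians were -0.09, -0.03 and 0.06 in mip40, mip120 and mip130 RNAi.

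The genes whose pattern over the 9 libraries was most like that of FK506-bp1 were RanGap, Ssrp, Acf1, chic and pen, with Pearson r of log2(FPKM + 1) between 0.968 and 0.981. RanGap encodes the activator of the Ran GTPase, which serves nuclear transport. The pen row lies on X in the table and is a different gene from the importin alpha gene Pen. Ssrp and Acf1 encode subunits of the chromatin factors FACT and ACF, and chic is profilin. RanGap had 106 ± 5.32 FPKM in mip40 RNAi, 77.2 ± 4.84 in mip120 RNAi, 72.5 ± 2.44 in mip130 RNAi and 115 FPKM in the E2F2 RNAi library, against 89.7 ± 4.33 FPKM in GFP cells. Without the E2F2 RNAi library r stayed between 0.964 and 0.981 over 8 libraries.

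For FK506-bp2 the 5 most alike were snoRNA:Me28S-A774a, CG5281, E2f2, cindr and snoRNA:Psi28S-1060, with r between 0.951 and 0.967. These values rest on the E2F2 RNAi library, and without it r lay between -0.19 and 0.79. E2f2, the targeted gene itself, had 2.54 FPKM in that library, against 25.8 and 27.9 FPKM in GFP cells, and its r with FK506-bp2 was 0.956 with the library and -0.19 without. CG5281 had 13.1 FPKM there, against 21.9 and 20.8 FPKM in GFP cells. Both small nucleolar RNAs were listed at 0 in this 1 library. Replicates of both differed in mip40 RNAi, at 121 and 357 FPKM for snoRNA:Me28S-A774a and 19.1 and 7.48 FPKM for snoRNA:Psi28S-1060. In GFP cells the first had 96.3 and 116 FPKM and the second 20.1 and 15.4 FPKM. The points of these correlations share libraries and their scaling, and they are given as a description.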

How the data were processed

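The authors deposited FPKM for 37161 transcripts in 9 columns, 1 per RNA library, matched to samples by the deposited readme sheet. Cuffnorm, Cufflinks, TopHat2 2.0.12 and Bowtie 1.1.1 were used, per the submitters' processing notes, whose roles and settings, like the genome build, are not given here. Per the labels' protocols, libraries were made from oligo-dT selected RNA and read as pairs of 100 bp. FPKM of transcripts marked as known, new isoform or other overlap were summed per gene symbol. Current names come from RefSeq (Release 6), without its coordinates. Chromatin samples and the authors' 4 mean columns were not used.

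On log2(FPKM + 1), limma (version 3.58.1, R 4.3.3) fitted 1 model of 5 groups with an intensity trend to the 7835 genes that reached 1 FPKM in 2 or more libraries. Calls are Benjamini-Hochberg adjusted p under 0.05 over all genes of a comparison. This scale understates changes of low genes. With no statement on separate cultures, p-values reflect the spread among these libraries alone, and that spread may be technical. The model was tested on simulated data. Members and gene lists were chosen with earlier results of these data known. Named genes are the FKBP family, the 3 nearest genes on each side, the 5 most correlated genes, targeted genes and up to 3 called members per list, and a few others were picked after their values were seen. The cell type markers were also chosen after the values were seen. Alternatives were scaling, pseudocount, filter, trend, transcript classes, replicate number as a block, groups fitted and each library left out.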

Additional observations from a re-analysis of the deposited data

How the results depend on the processing

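Without a filter on low FPKM the log2 changes stayed as they were, but FK506-bp2 in mip120 RNAi (-0.27), FK506-bp1 in mip130 RNAi (-0.22) and FK506-bp2 between mip120 and mip130 RNAi (-0.43) missed the threshold, and 424 genes were called in mip40 RNAi, against 721. The same 3 calls (-0.27, -0.22 and -0.43) were lost with only the groups compared, where 188 genes were called in mip40 RNAi, and with the replicate number as a block, where 414 were. With the replicate block, limma adjusted p was 0.082, 0.095 and 0.074 for these 3. The differences of replicate 1 from replicate 2 correlated between -0.13 and 0.02 over 6 pairs of groups. In none of the 4 groups was the correlation of largest size with another group positive, so the numbers were not taken as pairs. With median-ratio scaling the E2F2 differences were 0.11 for FK506-bp1 and -2.32 for FK506-bp2, and FK506-bp2 between mip130 and mip40 RNAi was -0.0081. With quantile normalization they were 0.068 and -2.43, FK506-bp2 in mip40 RNAi was -0.022, and FK506-bp1 lost its call in mip130 RNAi (-0.21) and between mip120 and mip40 RNAi (-0.23). Without the intensity trend FK506-bp1 in mip130 RNAi (-0.22) missed the threshold. With known transcripts alone FK506-bp1 was -0.020 in mip130 RNAi, 0.40 in the E2F2 library, -0.27 between mip130 and mip40 RNAi and -0.16 between mip120 and mip130 RNAi, and 444 genes were called in mip40 RNAi. This alternative removes the 2 new isoforms. The cause of the lost calls was not tested.

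With 1 library left out at a time, FK506-bp1 in mip130 RNAi lay between -0.29 and -0.16 and FK506-bp2 in mip120 RNAi between -0.31 and -0.23. FK506-bp1 lay between -0.39 and -0.29 for mip120 against mip40 RNAi and between -0.42 and -0.38 for mip130 against mip40 RNAi. FK506-bp2 lay between -0.48 and -0.36 for mip120 against mip40 RNAi, between -0.071 and 0.084 for mip130 against mip40 RNAi and between -0.51 and -0.35 for mip120 against mip130 RNAi. A group left with 1 library was assumed to vary like the others. Called genes numbered 301 to 719 in mip40 RNAi, 1581 to 2857 in mip120 RNAi and 1426 to 2839 in mip130 RNAi. The pseudocount of 0.1 and the addition of every transcript class changed no call of FK506-bp1 or FK506-bp2. Depth is unknown, and the E2F2 group has 1 library.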
